A study of Mus musculus with 21 samples.

Results

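The genes described here, Il6ra, Il6st, Il4ra, Il21r, Il27ra, Il18r1, Il12rb1, Il12rb2 and Ifngr1, encode 9 receptor chains for cytokines other than IL-2, IL-15 and IL-7. They were taken by gene symbol with no threshold on a measured value, though with earlier results of these data known, and all 9 were among the 17516 gene symbols of each of the 21 single-cell RNA libraries. The cells were OT1 CD8 T cells, which carry a transgenic T cell receptor for an ovalbumin peptide. One naive library was made before culture, on day 0. The other 20 libraries came from cells activated with beads coated with antibodies to CD3 and CD28, which all activated groups share. On days 3 and 5 there was a library without added cytokine and a library for each of IL-2, IL-2v and IL-15 at 5 and at 50 IU/mL, and on day 10 only the 6 libraries with cytokine. IL-2v is given in the treatment labels as mutant IL-2bg. In the 6 libraries titled with the higher dose of IL-2 or IL-15, the treatment label names interleukin-3 or interleukin-16, and the titles were followed. Each condition had 1 library, so no spread between replicate cultures could be measured, and no p-value is given for any difference. Whether a library came from 1 animal or from a pool is not given in the labels.

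Cytokine receptors set which signals a T cell can read. Il6ra encodes the chain that binds IL-6 and Il6st the signalling chain it shares with the IL-27 receptor, whose own chain is Il27ra. Both receptors signal through STAT3, among other factors. Il12rb1 and Il12rb2 encode the chains of the IL-12 receptor, which acts through STAT4 and, with the IL-18 receptor (Il18r1 with its partner Il18rap), drives interferon gamma production in effector cells. Il4ra and Il21r encode chains that pair with the common gamma chain, and Ifngr1 the ligand-binding chain of the interferon gamma receptor.

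The libraries held 3250 to 7105 cells and 10589950 to 32648496 unique molecular identifiers (UMIs, tags that mark single captured RNA molecules), with a median of 3016 to 5065 UMIs per cell. The library with 50 IU/mL IL-2 on day 5 was the lowest in each of these. It also held the highest Il12rb2 and Ifngr1 and the lowest Il27ra levels, and the part of its depth in them was not tested. A level below is in CPM, the UMIs of a gene summed over the cells of a library per 1000000 of all its UMIs. Its 95% interval is the exact Poisson interval, which covers counting error only. Of the T cell markers, Cd3d was seen in 93.0% to 99.5% of cells and Cd8b1 in 54.5% to 92.0%. Of the B cell markers, Ms4a1 was in at most 0.0209% of cells, while Ighm was seen in 11.5% to 90.3% of cells and the summed level of the list ran from 30.1 to 756 CPM. Ighm itself was lowest with 50 IU/mL IL-2 on day 10, at 27.4 CPM, and its part in the results below was not tested. Myeloid markers summed to at most 4.54 CPM, erythroid markers to at most 3.15 CPM, and Cd4 stood at 4.39 CPM or less, while the NK list summed to at most 36.7 CPM. Of that list, Ncr1 was in at most 0.0157% of cells, and Klrb1c stood at 36.7 CPM (13.0% of cells) with 50 IU/mL IL-2v, 22.0 CPM with 5 IU/mL IL-2 and 21.3 CPM with 50 IU/mL IL-2 on day 10, and at 3.57 CPM or less in the other libraries. The same 3 day 10 libraries held the highest Il12rb1 levels of that day, and the part of Klrb1c-positive cells in them was not tested. The share of cells with a UMI of Mki67 or Top2a, called cycling here, ran from 3.01% in the naive library to 86.9% with 50 IU/mL IL-2v on day 3. Between 1 and 19 cell barcodes (median 7) were shared by any pair of libraries, at most 0.34% of the smaller one.

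Differences are in log2(CPM + 1), on which low genes show smaller changes than in CPM. A gene entered a comparison only if its mean over the libraries of either arm was 20 CPM or more. It was called higher or lower where every pair had the same sign and the median difference was at least 1 in size, which is a 2-fold change of CPM + 1. Pairs at other days and doses are not replicates of each other. Comparisons that use the same libraries (the cytokines against no cytokine, or the 3 cytokines against each other) share those values and are not independent.

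**Figure D1:**
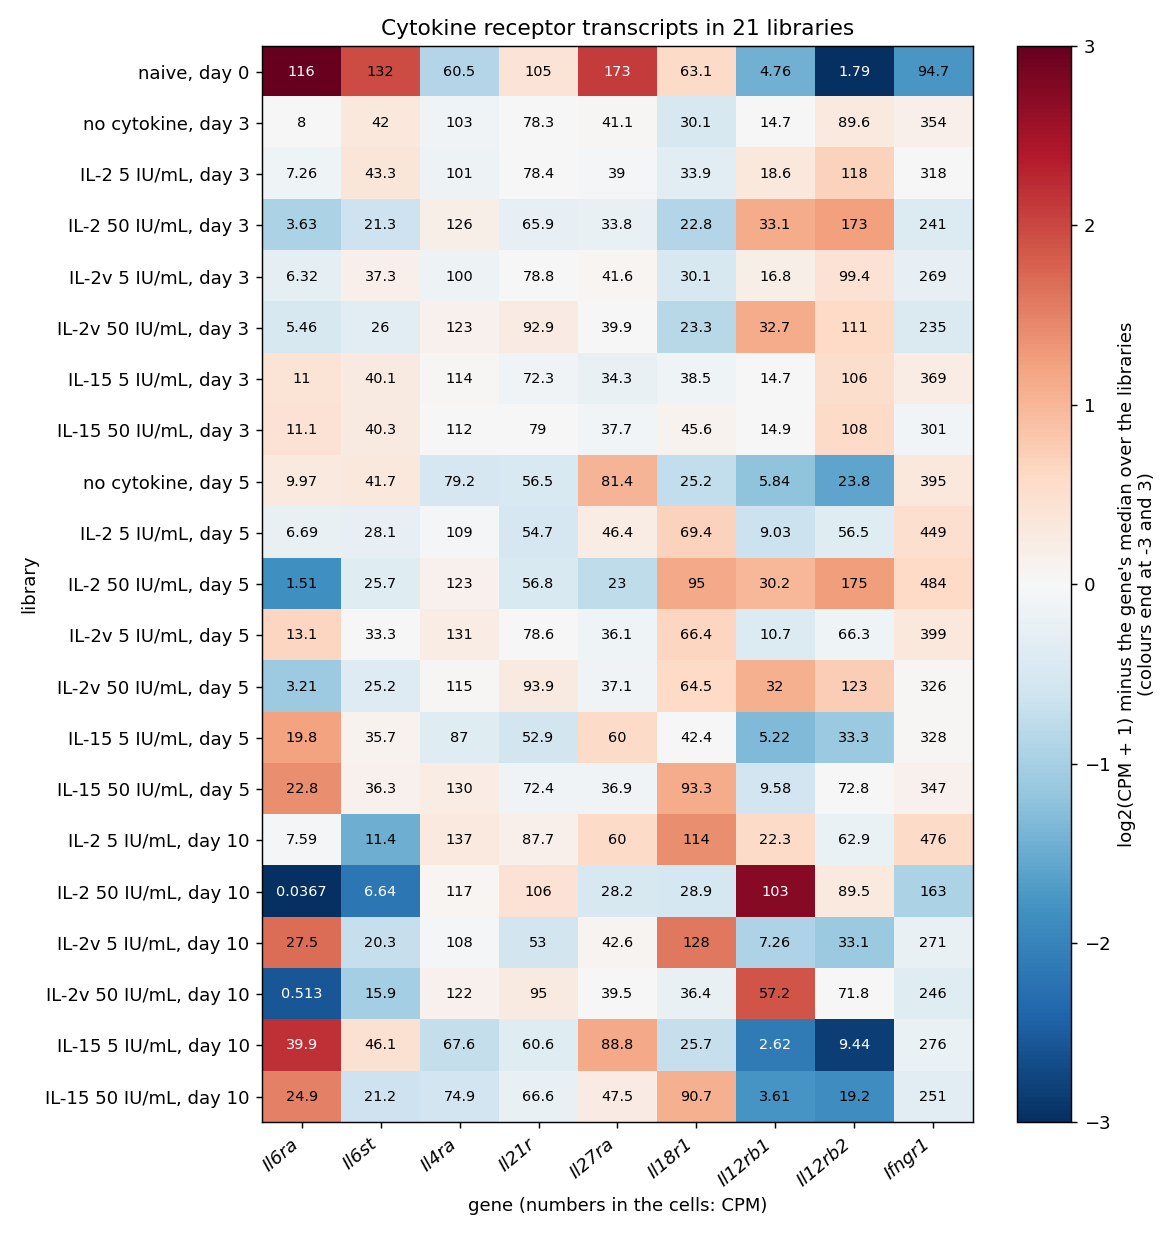
Level of each of the 9 receptor genes (columns) in each of the 21 libraries (rows), printed as CPM and coloured by the log2(CPM + 1) distance from the median of that gene over the libraries, with colours ending at -3 and 3. Il6ra, Il6st and Il27ra were at their highest in the naive library and Il12rb2 at its lowest, and the library with 50 IU/mL IL-2 on day 10 held the highest Il12rb1 and the lowest Il6ra.

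Naive cells and bead-activated cells without cytokine differed in most of the 9 genes. On day 3, 2 of the 8 genes that entered the comparison were higher than in the naive library, Il12rb2 and Ifngr1, and 4 were lower, Il6ra, Il6st, Il27ra and Il18r1. Over all 6171 genes tested, 11.1% were called higher and 8.31% lower. The median over the 8 receptor genes was -0.73, against -0.11 over all genes tested. With 1 pair, a call here rests on 1 library against 1 library. Il12rb2 entered through its day 3 level alone and Il6ra through its naive level alone.

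Il6ra stood at 116 CPM (95% interval 111 to 121) in the naive library and at 8.0 CPM (6.87 to 9.27) on day 3 without cytokine, a log2 difference of -3.70. Il6st, its signalling partner, stood at 132 and 42.0 CPM, a difference of -1.63. Il27ra stood at 173 and 41.1 CPM, a difference of -2.05. The naive library was thus the highest of the 21 for all 3 chains. The highest activated levels were 39.9 CPM for Il6ra, 46.1 CPM for Il6st and 88.8 CPM for Il27ra, all with 5 IU/mL IL-15 on day 10.

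In the other direction, Il12rb2 had 1.79 CPM (1.23 to 2.51) in naive cells and 89.6 CPM (85.7 to 93.6) on day 3, a difference of 5.02. Ifngr1 had 94.7 and 354 CPM, a difference of 1.89. The naive library was the lowest of the 21 for both genes. Il12rb1, the other IL-12 receptor chain, had 4.76 and 14.7 CPM and did not reach the level needed to enter this comparison. Il4ra, which binds IL-4, had 60.5 CPM in naive cells and 103 CPM on day 3, a difference of 0.76, and Il21r had 105 and 78.3 CPM, a difference of -0.42, and neither was called.

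Il18r1 had 63.1 CPM in naive cells and 30.1 CPM on day 3, a difference of -1.04, at the limit for a call. The call was lost with TMM scaling (-0.99), with a pseudocount of 10 CPM (-0.87) and with another choice of naive cells. Of the naive cells, 569 held a UMI of Ccl5, a chemokine gene of memory and effector CD8 cells, and 4208 did not. Il18r1 stood at 167 CPM (151 to 185) in the cells with Ccl5 and at 48.3 CPM (44.9 to 51.8) in the others, 3.46 times as high, and without the cells with Ccl5 the day 3 difference was -0.66 and no longer called. Ifngr1 stood at 178 and 82.7 CPM and Il12rb1 at 13.4 and 3.53 CPM in the same groups of cells. Il6ra (81.4 and 121 CPM) and Il6st (76.2 and 140.1 CPM) were lower in the cells with Ccl5. The intervals of these 5 genes did not overlap between the groups of cells, while those of Il4ra, Il21r, Il27ra and Il12rb2 overlapped. Levels in these groups of cells were compared for the receptor genes only, so how many other genes would differ was not tested.

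**Figure D2:**
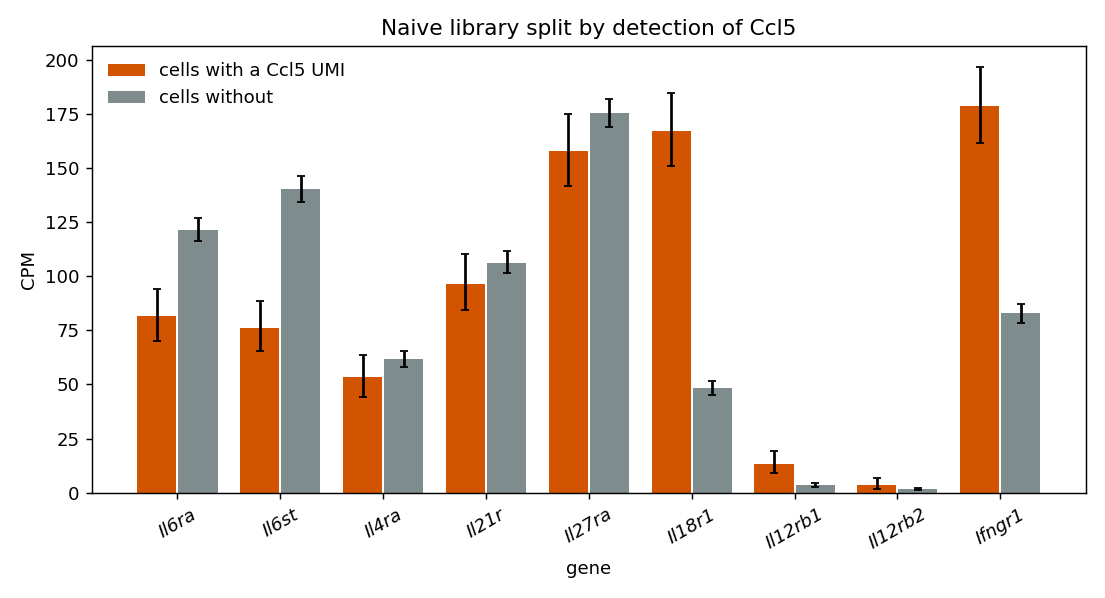
Level in CPM (bars) with the exact 95% Poisson interval (error bars) of each receptor gene in the naive library, in 569 cells with a Ccl5 UMI and in 4208 cells without. Il18r1 and Ifngr1 stand higher in the cells with Ccl5 (167 against 48.3 CPM and 178 against 82.7 CPM), and Il6ra and Il6st lower.

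The pathway lists moved unevenly in the same comparison of no cytokine on day 3 with naive cells. Of 10 tested feedback and target genes, 5 were higher (Bcl3, Gbp2, Igtp, Tbx21 and Batf) and Socs3, a feedback inhibitor of IL-6 family signalling, was lower, at 44.6 CPM in naive cells and 14.0 CPM on day 3. The interferon-induced GTPase Igtp stood at 72.2 and 241 CPM, and Tbx21, which encodes the transcription factor T-bet, at 7.58 and 20.9 CPM. Of 11 JAK and STAT genes, 1 was higher (Jak3, 19.5 and 40.4 CPM) and none lower. Of 2 partner chains tested, Ifngr2 was lower (21.6 and 7.91 CPM), so the chains of the interferon gamma receptor went in opposite directions, and of 7 other cytokine receptors Il7r was lower (446 and 137 CPM). Neither of 2 IL-18 adaptors was called, and none of the 7 listed ligand genes reached the level needed.

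Without cytokine, Il12rb2 was lower again by day 5. Il12rb2 stood at 89.6 CPM on day 3 and at 23.8 CPM (21.9 to 25.7) on day 5, a difference of -1.87, and was the only one of 7 receptor genes tested that was called, with 3.61% of 5785 genes called higher and 9.47% lower. That is 209 genes higher and 548 lower, and 297 and 484 with TMM scaling (trimmed mean of M values). Il27ra stood at 41.1 and 81.4 CPM, a difference of 0.97, below the size needed but called with TMM scaling. Il12rb1 stood at 14.7 and 5.84 CPM without entering the comparison. Il6ra, Il6st, Il18r1 and Ifngr1 differed by at most 0.29 in size between these libraries. Of the lists, 3 genes were higher on day 5, Il2rg (190.3 and 386 CPM), Il7r (137 and 699.8 CPM) and Jak1 (235 and 474 CPM).

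The IL-12 receptor chains differed between cytokines and doses. Il12rb2 with IL-2 at 50 IU/mL stood at 173 CPM on day 3, 175 CPM on day 5 and 89.5 CPM on day 10, and with 5 IU/mL at 118, 56.5 and 62.9 CPM. With IL-2v at 50 IU/mL it stood at 111, 123 and 71.8 CPM, and with 5 IU/mL at 99.4, 66.3 and 33.1 CPM. With IL-15 at 50 IU/mL it stood at 108, 72.8 and 19.2 CPM, and with 5 IU/mL at 106, 33.3 and 9.44 CPM. On days 3 and 5 every library with cytokine was above the library without cytokine of its day, and the higher dose was above the lower dose in all 9 pairs. With IL-15 on day 3 the intervals of the 50 and 5 IU/mL doses overlapped (104 to 113 and 102 to 110 CPM), so that pair cannot be ordered.

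Il12rb1 with IL-2 at 50 IU/mL stood at 33.1, 30.2 and 103 CPM on days 3, 5 and 10, and with 5 IU/mL at 18.6, 9.03 and 22.3 CPM. With IL-2v at 50 IU/mL it stood at 32.7, 32.0 and 57.2 CPM, and with 5 IU/mL at 16.8, 10.7 and 7.26 CPM. With IL-15 at 50 IU/mL it stood at 14.9, 9.58 and 3.61 CPM, and with 5 IU/mL at 14.7, 5.22 and 2.62 CPM. The 4 libraries on day 10 that had 5 IU/mL IL-2v, either dose of IL-15 or 5 IU/mL IL-2 thus spanned 2.62 to 22.3 CPM, and those with 50 IU/mL IL-2 or IL-2v stood above all of them. The share of cells with an Il12rb1 UMI, after each cell was thinned to 2000 UMIs, was 19.6% (exact Clopper-Pearson 95% interval 18.5 to 20.8) with 50 IU/mL IL-2 on day 10 and 0.593% (0.406 to 0.836) with 5 IU/mL IL-15 on that day. The unthinned shares were 40.6% and 1.12%.

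**Figure D3:**
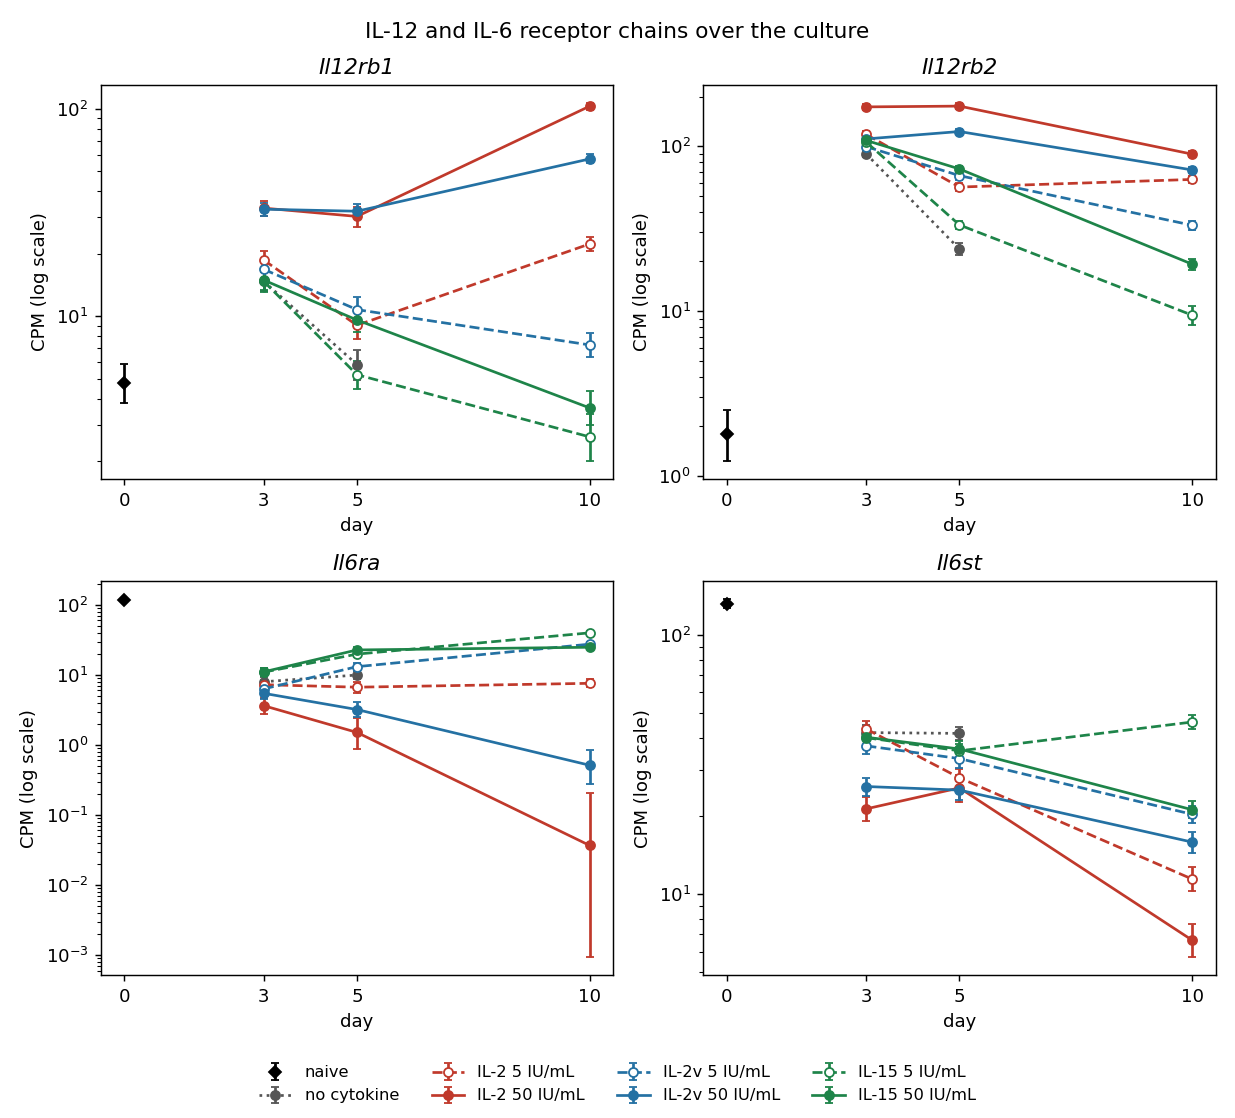
Levels of Il12rb1, Il12rb2, Il6ra and Il6st in CPM on a log axis against the day of culture, with exact 95% Poisson intervals, for naive cells (diamond), no cytokine (dotted), and IL-2, IL-2v and IL-15 at 5 IU/mL (dashed, open) and 50 IU/mL (solid, filled). On day 10, 50 IU/mL IL-2 and IL-2v hold the highest Il12rb1 (103 and 57.2 CPM) and the lowest Il6ra (0.0367 and 0.513 CPM).

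Il12rb2 lies on chromosome 6, from 67291318 to 67376188 on the minus strand (GRCm38, GENCODE vM21), and 40% of its exonic bases are shared with Serbp1 on the opposite strand. The sources used here do not state whether counting used the strand. Serbp1 had 651 CPM in the naive library, where Il12rb2 had 1.79 CPM. Serbp1 was highest with 50 IU/mL IL-2 on day 3, at 1623 CPM, where Il12rb2 was second highest at 173 CPM. It was lowest with 5 IU/mL IL-15 on day 10, at 639 CPM, where Il12rb2 was the lowest of the activated libraries at 9.44 CPM. The part of Serbp1 reads in the Il12rb2 values was not tested. The other 8 genes share at most 9.51% of their exonic bases (Il4ra, with Gm44876) with a gene on the opposite strand and none on the same strand. Il12rb1 lies on chromosome 8, from 70808449 to 70821424.

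The promoters of Il12rb2 and Il6ra are shown because these genes took opposite orders between IL-2 and IL-15. Both are from RefSeq (GRCm38.p6), run 5′ to 3′ on the minus strand from 250 bases before the annotated start to 50 after it, at chr6:67376139-67376438 for Il12rb2 and chr3:89913147-89913446 for Il6ra. Entries were found for 7 of the 9 genes. Capitals mark matches, on either strand, to a paired STAT half-site motif (TTCNNNGAA), an AP-1 motif (TGANTCA), a TCF and LEF motif (CTTTGA) and a T-box core (TCACAC).
Il12rb2: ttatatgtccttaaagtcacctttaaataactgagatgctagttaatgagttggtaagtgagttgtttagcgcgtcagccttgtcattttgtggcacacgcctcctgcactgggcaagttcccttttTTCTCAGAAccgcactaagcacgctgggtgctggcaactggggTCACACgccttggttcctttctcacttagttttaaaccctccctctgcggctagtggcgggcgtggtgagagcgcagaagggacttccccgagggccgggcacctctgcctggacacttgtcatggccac
Il6ra: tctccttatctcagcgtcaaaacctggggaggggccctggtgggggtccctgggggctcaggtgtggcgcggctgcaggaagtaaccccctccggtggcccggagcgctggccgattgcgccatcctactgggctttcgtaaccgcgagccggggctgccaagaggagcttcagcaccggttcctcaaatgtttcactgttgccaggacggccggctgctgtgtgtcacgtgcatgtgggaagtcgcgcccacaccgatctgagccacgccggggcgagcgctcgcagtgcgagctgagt
The Il12rb2 window held 1 STAT match and 1 T-box match, which do not overlap, and the Il6ra window held none of the 4 motifs. Of the genes not shown, Il18r1 had a window (chr1:40465756-40466055) with 2 STAT matches. Its other windows and those of Il4ra, Il21r, Ifngr1 and Il6st held none. Over all 32851 promoters of this length, 8.30% held the STAT motif, 14.5% the T-box core, 7.81% the AP-1 motif and 16% the TCF and LEF motif. A match is a string of letters, and binding was not measured here.

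Among the cytokines at equal day and dose, Il6ra was highest with IL-15. Il6ra with IL-15 at 50 IU/mL stood at 11.1 CPM on day 3, 22.8 CPM on day 5 and 24.9 CPM on day 10, and with 5 IU/mL at 11, 19.8 and 39.9 CPM. The levels with IL-2v at 5 IU/mL were 6.32, 13.1 and 27.5 CPM, and with 50 IU/mL at 5.46, 3.21 and 0.513 CPM. With IL-2 at 5 IU/mL it stood at 7.26, 6.69 and 7.59 CPM, and with 50 IU/mL at 3.63, 1.51 and 0.0367 CPM. The last value is 1 UMI among 27274115 (95% interval 0.000928 to 0.204 CPM), below the 0.11 CPM that 3 UMIs would give in that library. After thinning, none of 4693 cells there held an Il6ra UMI, which allows a share of cells with a UMI of up to 0.0639% (3 cells; exact 95% upper limit 0.0786%), against 7.64% (6.94 to 8.38) of cells with 5 IU/mL IL-15 on day 10 and 20.1% (18.9 to 21.3) of naive cells. The unthinned shares were 0.0203%, 14.6% and 33.2%. The libraries held no cell type that should lack these genes, so a background share from free RNA was not measured.

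Il6st, the signalling chain, had a narrower range. It stood at 40.1 to 43.3 CPM on day 3 with no cytokine, with 5 IU/mL IL-2 and with both doses of IL-15, at 37.3 CPM with 5 IU/mL IL-2v, and at 21.3 and 26.0 CPM with 50 IU/mL IL-2 and IL-2v. On day 10 it stood at 6.64 CPM with 50 IU/mL IL-2, 11.4 CPM with 5 IU/mL IL-2, 15.9 and 20.3 CPM with 50 and 5 IU/mL IL-2v, and 21.2 and 46.1 CPM with 50 and 5 IU/mL IL-15. The order on day 10 thus placed IL-2 lowest, IL-2v next and IL-15 highest at either dose, with overlapping intervals only between 5 IU/mL IL-2v and 50 IU/mL IL-15.

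Set against no cytokine in the 4 pairs of days 3 and 5, 1 of 8 receptor genes tested was called with IL-2, and it was Il12rb2, higher with a median of 1.08 (0.39 to 2.83), where 1.77% of 5752 genes were called higher and 0.8% lower. Without day 5 its median was 0.67, with a pseudocount of 10 CPM it was 0.93, and in neither was it called. With IL-2v 0 of 8 receptor genes were called, where 6.25% of 6014 genes were called higher and 1.05% lower. With IL-15 0 of 7 were called, where 0.377% of 5576 genes were called higher and 0.0538% lower. All-gene calls were 102 higher and 46 lower with IL-2 (78 and 55 with TMM scaling) and 376 higher and 63 lower with IL-2v (231 and 117).

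The 2 days differed within these comparisons. On day 5 alone, Il12rb1 with IL-2v was above no cytokine by 0.78 at 5 IU/mL and 2.27 at 50 IU/mL, Il12rb2 by 1.44 and 2.32, and Il18r1 by 1.36 and 1.32, and the Il27ra differences were -1.15 and -1.11. On day 3 the same IL-2v differences of Il12rb2 were 0.15 and 0.30. With IL-15 on day 5, Il6ra stood at 19.8 and 22.8 CPM at 5 and 50 IU/mL against 9.97 CPM without cytokine, Il18r1 at 42.4 and 93.3 CPM against 25.2 CPM, and Il12rb2 at 33.3 and 72.8 CPM against 23.8 CPM. With IL-2 on day 5, the Il18r1 differences were 1.43 and 1.87, those of Il12rb2 1.22 and 2.83, and those of Il27ra -0.80 and -1.78. Without day 3 these 3 genes were called with IL-15, these 3 with IL-2, and the 4 named above with IL-2v, while the calls over all genes went from 24 to 220, from 148 to 528 and from 439 to 1109. The 2 pairs then left for each cytokine share the day 5 library without cytokine and are not independent. Il12rb1 with IL-2v and Il6ra with IL-15 entered through the libraries with cytokine, as each was under 20 CPM without cytokine on day 5. These calls are not given as a share of the genes tested, so the receptor genes cannot be set against all genes here. Of the feedback and target genes, the interferon-induced Irgm1 (a mean of 54.9 against 104.7 CPM) was lower with IL-2. With IL-2v, Il18rap was higher (34.5 against 11.9 CPM) and Il7r lower (87.4 against 419 CPM). With IL-15 no gene of any list was called.

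IL-2v and IL-2 gave no call in the receptor genes over the 6 pairs of equal day and dose. Of 8 genes tested 0 were called, where 1.04% of 5839 genes were called higher with IL-2v and 0.274% lower, that is 61 and 16 genes (36 and 25 with TMM scaling). Of the genes tested Il12rb2 had the largest median, -0.41 (-0.90 to 0.23), and was lower with IL-2v in 5 of 6 pairs. The largest single gaps of genes tested came on day 10: Il12rb1 differed by -1.49 at 5 IU/mL (7.26 against 22.3 CPM) and Il6st by 1.14 at 50 IU/mL (15.9 against 6.64 CPM). Il6ra did not reach the level needed, and stood at 27.5 CPM with 5 IU/mL IL-2v against 7.59 CPM with IL-2 on day 10. Of the lists, Il7r alone was called, lower with IL-2v with a median of -2.01.

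IL-15 against IL-2 gave 3 calls among the 9 receptor genes. Il6ra was higher with IL-15 in all 6 pairs, with a median of 1.85 (0.54 to 4.64). Il12rb1 was lower in all 6, with a median of -1.33 (-4.49 to -0.32), and Il12rb2 was lower in all 6, with a median of -1.001 (-2.61 to -0.15). Over 5718 genes tested, 0.49% were called higher with IL-15 and 1.7% lower. Il6ra entered this comparison through its mean with IL-15 and Il12rb1 through its mean with IL-2, as each was under 20 CPM in the other arm. For each of the 3 genes the gaps were smallest at 5 IU/mL on day 3. Without day 10, the medians were 1.41, -0.90 and -0.71 and none of the 3 was called, Il6ra because it no longer reached the level needed. With a pseudocount of 10 CPM the median of Il12rb1 was -0.92 and its call was lost. The median of Il12rb2 lies at the limit, and 5 of 10 other settings lost its call. Il6st was higher with IL-15 in 5 of 6 pairs, with a median of 0.68, and the Il4ra differences on day 10 were -1.004 at 5 IU/mL and -0.64 at 50 IU/mL. No gene of the lists was called.

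IL-2v against IL-15 gave 1 call among 9 genes, Il12rb1, higher with IL-2v in all 6 pairs with a median of 1.14 (0.18 to 3.66). Il12rb1 was under 20 CPM in every library with IL-15. It thus entered through its mean with IL-2v, and a call in the other direction was not open to it. In the day 3 pair at 5 IU/mL its levels, 16.8 and 14.7 CPM, had overlapping intervals, so the sign of that pair is within counting error. Over 5810 genes, 2.48% were called higher and 0.585% lower, which is 144 and 34 genes, against 87 and 53 with TMM scaling and 84 and 50 when ribosomal protein and mitochondrial genes were left out of the totals. Among noncycling cells Il12rb1 had a median of 1.02, but not every pair had the same sign. With a pseudocount of 10 CPM the median was 0.62, and the call was lost under both settings. Il6ra and Il6st were lower with IL-2v in all 6 pairs, with medians of -0.81 and -0.45, below the size needed. Il12rb2 was higher in 5 of 6 pairs, with a median of 0.86, and on day 3 its levels were 99.4 against 106 CPM at 5 IU/mL and 111 against 108 CPM at 50 IU/mL.

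**Figure D4:**
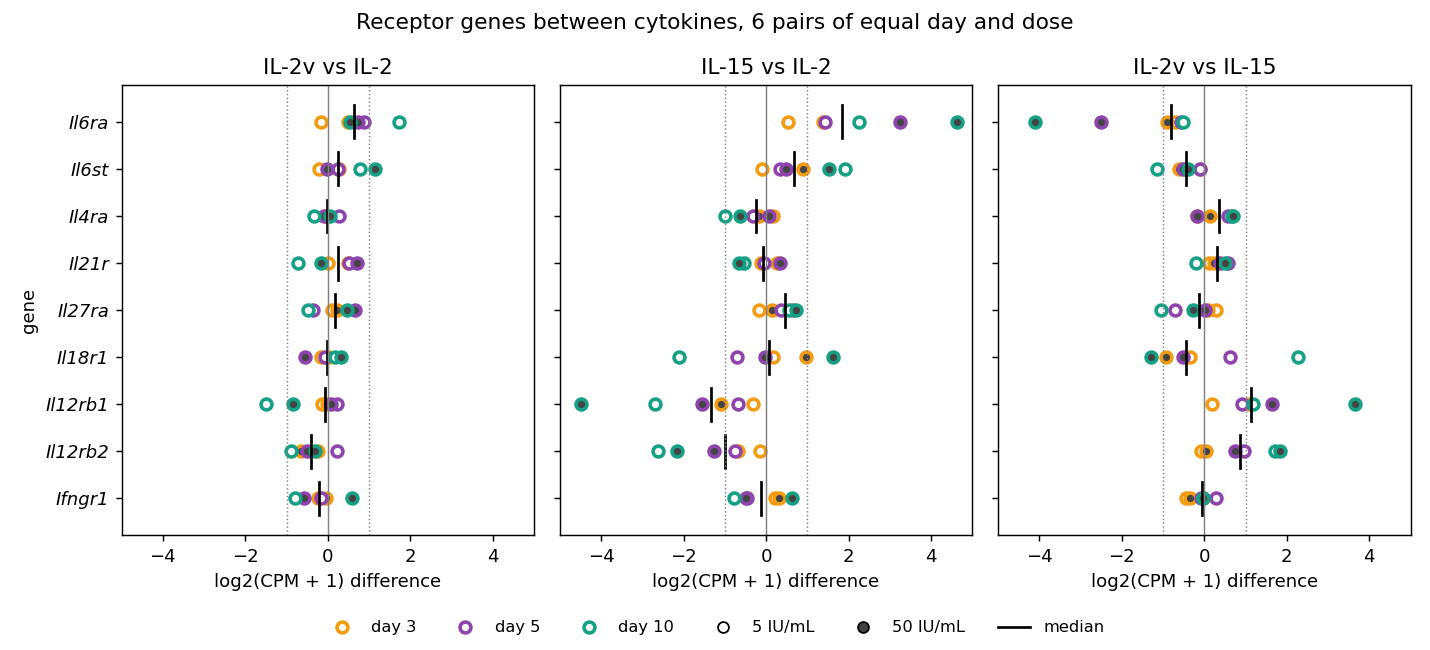
Difference in log2(CPM + 1) of each receptor gene in the 6 pairs of equal day (ring colour) and dose (open at 5 IU/mL, filled at 50 IU/mL) for IL-2v against IL-2, IL-15 against IL-2 and IL-2v against IL-15, with the median as a black line and the size needed for a call as dotted lines at -1 and 1. Il6ra lies to the right and Il12rb1 and Il12rb2 to the left in all 6 pairs of IL-15 against IL-2, and Il12rb1 to the right in all 6 pairs of IL-2v against IL-15.

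Il12rb1 was higher at the higher dose of IL-2 and of IL-2v. It entered both comparisons through its level at 50 IU/mL, as its mean at 5 IU/mL was under 20 CPM. At 50 IU/mL IL-15 it was also higher on all 3 days (14.9 against 14.7, 9.58 against 5.22 and 3.61 against 2.62 CPM). Those levels were too low to enter the comparison, and their intervals overlapped on days 3 and 10. From 5 to 50 IU/mL IL-2 it was higher in all 3 days, with a median of 1.64 (0.80 to 2.16), and it was the only one of 8 receptor genes called, where 4.29% of 5879 genes were called higher and 2.7% lower. With IL-2v it was again the only one of 8, with a median of 1.49 (0.92 to 2.82), where 2.38% of 5913 genes were called higher and 0.626% lower, that is 141 and 37 genes (101 and 57 with TMM scaling). Il27ra was lower at 50 IU/mL IL-2 on all 3 days (33.8 against 39, 23.0 against 46.4 and 28.2 against 60.0 CPM), with a median of -0.98. That is just under the size needed, and it was called lower without day 3, with at most 5% mitochondrial UMIs and with ribosomal protein and mitochondrial genes left out of the totals. Il6ra was lower at the higher dose in all 3 days with both, by a median of -1.61 with IL-2 and -1.75 with IL-2v, but did not reach the level needed to be called. On day 10 it stood at 27.5 CPM with 5 IU/mL IL-2v and 0.513 CPM (0.28 to 0.861) with 50 IU/mL.

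Some target genes of interferon gamma were lower at the higher dose of IL-2. Of 9 tested feedback and target genes 3 were lower (Irf1, a mean of 58.5 against 116 CPM, Gbp2, 39.6 against 82.3 CPM, and Irgm1, 30.1 against 75.7 CPM) and 0 higher, with a median over the list of -0.70 against 0.03 over all genes tested. Ifngr1 itself stood at 241 and 318 CPM on day 3, 484 and 449 CPM on day 5 and 163 and 476 CPM on day 10 with 50 and 5 IU/mL, and was not called. With IL-2v 0 of 8 tested feedback and target genes were called.

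With IL-15, 50 against 5 IU/mL, Il18r1 was the only one of 8 receptor genes called, higher with a median of 1.12 (0.24 to 1.78), where 0.869% of 5523 genes were called higher and 0.181% lower. It stood at 38.5 and 45.6 CPM on day 3, 42.4 and 93.3 CPM on day 5 and 25.7 and 90.7 CPM on day 10 with 5 and 50 IU/mL. The call was lost under 4 of 10 other settings: without day 10 (0.68), with TMM scaling (0.98), with a pseudocount of 10 CPM (0.98) and with at most 5% mitochondrial UMIs (just under the size needed). Its partner chain Il18rap was called as well, with a median of 1.10 (0.14 to 2.51). Il12rb2 was higher in all 3 pairs, with a median of 0.96, though its intervals overlapped on day 3. Il27ra was lower on days 5 and 10 (36.9 against 60.0 CPM and 47.5 against 88.8 CPM). Il7r was the only gene of the other lists called, and was lower (a mean of 126 against 501 CPM).

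With IL-2v, the Il18r1 levels were 30.1 and 23.3 CPM on day 3, 66.4 and 64.5 CPM on day 5 and 128 and 36.4 CPM on day 10 with 5 and 50 IU/mL. With IL-2 it stood at 33.9 and 22.8 CPM on day 3, 69.4 and 95 CPM on day 5 and 114 and 28.9 CPM on day 10. On day 10 the 3 highest libraries were thus those with 5 IU/mL IL-2v, 5 IU/mL IL-2 and 50 IU/mL IL-15, and the other 3 stood at 25.7 to 36.4 CPM. The highest and the lowest level on day 10 differed by 5.00-fold. After thinning, 22.5% (21.5 to 23.6) of cells with 5 IU/mL IL-2v held an Il18r1 UMI, and 43.9% without thinning.

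Il18rap encodes the second chain of the IL-18 receptor, and its gene lies 14.5 kb from Il18r1 on chromosome 1, on the same strand. On day 10 Il18rap stood at 73.8 and 34.5 CPM with 5 and 50 IU/mL IL-2, 69.4 and 53.5 CPM with IL-2v and 6.52 and 41.7 CPM with IL-15. It had 16.3 CPM in naive cells, 15.2 CPM on day 3 and 8.57 CPM on day 5 without cytokine. Its level was thus lowest at the lower dose of IL-15 on day 10, where Il18r1 was also the lowest of that day.

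**Figure D5:**
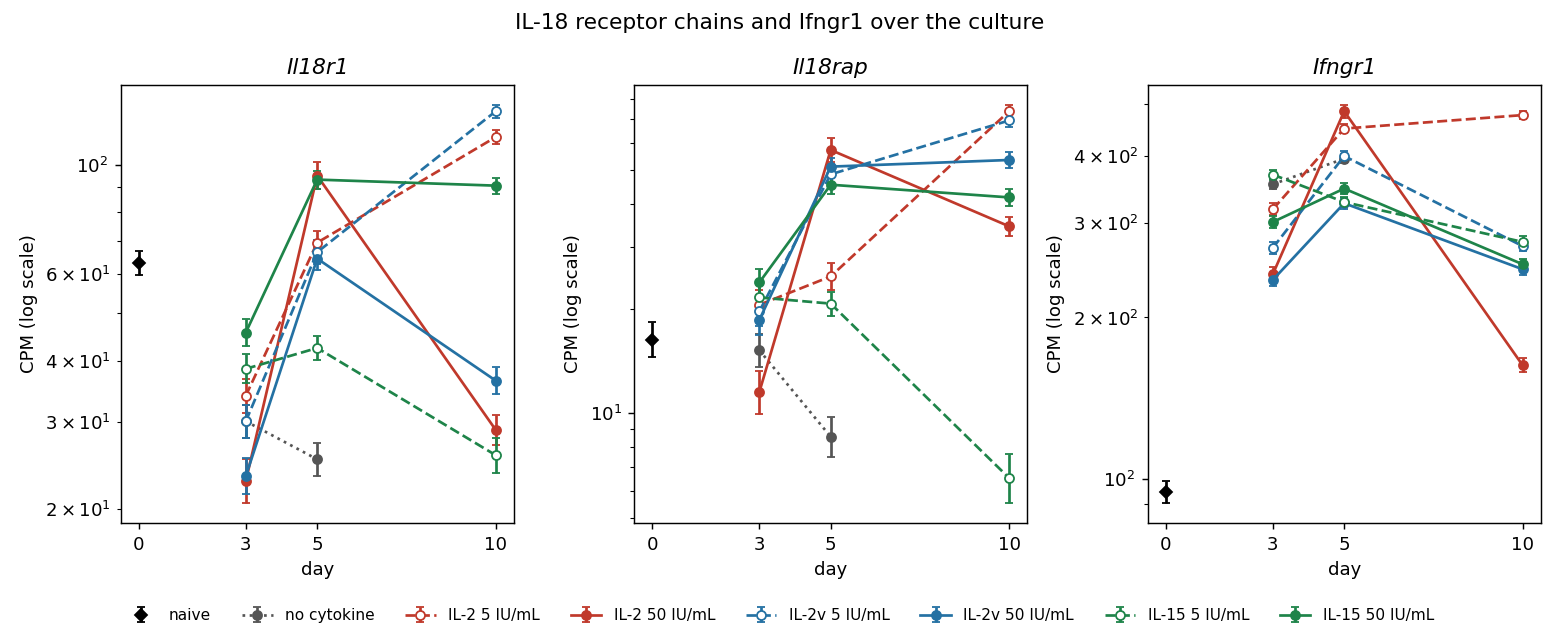
Levels of Il18r1, its partner chain Il18rap and Ifngr1 in CPM on a log axis against the day, with exact 95% Poisson intervals and the line styles for cytokine and dose given in the legend. Il18r1 was higher on day 5 than on day 3 in all 6 cultures with cytokine, though with overlapping intervals at 5 IU/mL IL-15. On day 10 the dose of IL-15 (25.7 and 90.7 CPM) and of IL-2v (128 and 36.4 CPM) ordered it in opposite directions.

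Between days, Il18r1 and Il12rb2 changed in the cultures with cytokine. From day 3 to day 5 Il18r1 was higher in all 6 cultures with a median of 1.07 (0.14 to 2.01) and was the only one of 8 receptor genes called, where 0.829% of 5912 genes were called higher and 2.22% lower, that is 49 and 131 genes (67 and 89 with TMM scaling). With 5 IU/mL IL-15 its levels on days 3 and 5, 38.5 CPM (35.9 to 41.2) and 42.4 CPM (40.1 to 44.8), had overlapping intervals. With a pseudocount of 10 CPM the median of Il18r1 was 0.91 and the call was lost. From day 3 to day 10 Il12rb2 was lower in all 6 with a median of -1.25 (-3.35 to -0.62) and was the only one of 8 called, where 0.87% of 5977 genes were called higher and 7.98% lower, that is 52 and 477 genes (98 and 282). The fall of Il12rb2 was largest with IL-15, -3.35 at 5 IU/mL and -2.43 at 50 IU/mL. Il12rb1 went both ways by day 10, by 1.60 with 50 IU/mL IL-2 and by -2.12 with 5 IU/mL IL-15. No gene of the lists was called in either comparison.

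Ifngr1, Il4ra and Il21r were detected in every library and were called in no comparison after activation. Ifngr1 in the activated libraries ran from 163 CPM with 50 IU/mL IL-2 on day 10, through a median of 322 CPM, to 484 CPM with 50 IU/mL IL-2 on day 5. Both ends of its range thus came from the same dose of IL-2, 5 days apart. The upper end came from the library with the fewest cells and UMIs. The share of cells with an Ifngr1 UMI after thinning was 58.6% (57.4 to 59.9) with 5 IU/mL IL-2 on day 10 and 15.4% (14.4 to 16.5) in naive cells, and 80.5% and 26.6% without thinning.

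Il4ra in the activated libraries ran from 67.6 CPM with 5 IU/mL IL-15 on day 10, through 113 CPM, to 137 CPM with 5 IU/mL IL-2 on day 10. Only the 2 libraries with IL-15 on day 10 (67.6 and 74.9 CPM), the one without cytokine on day 5 (79.2 CPM) and the one with 5 IU/mL IL-15 on day 5 (87.0 CPM) stood below 100 CPM. Il21r ran from 52.9 CPM with 5 IU/mL IL-15 on day 5, through 75.4 CPM, to 106 CPM with 50 IU/mL IL-2 on day 10, a 2.01-fold range. The naive library, at 105 CPM, stood beside the highest of these. Il4ra and Il21r are neighbours on chromosome 7, 24.0 kb apart on the same strand, and their levels had a Pearson r of 0.17 over the 21 libraries and 0.47 without the naive library, which is a description over libraries that share cultures and doses.

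Il27ra in the activated libraries ran from 23.0 CPM with 50 IU/mL IL-2 on day 5, through 39.7 CPM, to 88.8 CPM with 5 IU/mL IL-15 on day 10. It stood at 81.4 CPM without cytokine on day 5, and at 60.0 CPM with 5 IU/mL IL-15 on day 5 and with 5 IU/mL IL-2 on day 10. The other activated libraries stood at 47.5 CPM or below. On day 3 all 7 libraries lay between 33.8 and 41.6 CPM.

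Ordered by level over the 21 libraries, most neighbours could not be told apart by their counting intervals. Intervals of adjacent libraries overlapped in 14 of 20 neighbouring pairs for Il6ra, 15 for Il6st, 16 for Il4ra, 18 for Il21r, 14 for Il27ra, 16 for Il18r1, 16 for Il12rb1, 11 for Il12rb2 and 11 for Ifngr1.

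Several receptor genes moved together or apart over the 21 libraries, which share cultures, doses and days, so the following correlations of log2(CPM + 1) are descriptions. Il6ra and Il12rb1 had a Pearson r of -0.90 (Spearman -0.90), and -0.92 without the naive library. Il27ra and Il12rb2 had -0.91 (-0.80), and -0.82 without the naive library. Il12rb1 and Il12rb2, which form 1 receptor, had 0.72 (0.78), and 0.77 without the naive library. Il6ra and Il6st had 0.71 (0.49), and Il27ra and Il6st 0.58 (0.33), falling to 0.59 and 0.29 without the naive library. Pairs from different receptors reached similar or higher values. Il4ra and Il12rb2 had 0.85 (0.54), Il6ra and Il27ra 0.72 (0.57), and Il4ra and Il12rb1 0.71 (0.67). In single cells, the share with UMIs of both chains of a receptor was set beside the product of the single shares, over the libraries with at least 1 such cell. The product lay inside the exact interval of the observed share in 18 of 18 libraries for Il6ra with Il6st, 20 of 21 for Il27ra with Il6st and 18 of 20 for Il12rb1 with Il12rb2. Where few cells held both chains these intervals are wide, so a departure from the product was often not detectable at this depth. With 50 IU/mL IL-2 on day 10, 3.56% (3.05 to 4.13) of cells held both IL-12 receptor chains, against a product of 3.18%. For Il12rb1 with Il12rb2 the 2 libraries outside their interval both had 5 IU/mL IL-2. The share with both chains was above the product there, at 0.367% against 0.201% on day 5 and 0.773% against 0.430% on day 10. With 5 IU/mL IL-2 on day 3 it was below the product, at 0.639% against 0.758%, inside the interval. For Il27ra with Il6st the 1 library outside had 50 IU/mL IL-15 on day 5, at 0.286% against a product of 0.473%. No allowance was made for the number of intervals compared, so whether these departures exceed counting error was not tested.

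Over 5495 genes whose mean level was 20 CPM or more, those most like each receptor gene over the 21 libraries were ranked by Pearson r of log2(CPM + 1). Il12rb2 was most like C1qtnf12 (0.96), and Il2ra (0.95), which encodes a chain of the IL-2 receptor, was also among its 3 most similar genes. Il12rb1 was most like Cdkn1a (0.96), a cell cycle inhibitor, Litaf (0.95) and Sept9 (0.95). Il6ra was most like Atp1b3 (0.94), Bcl9l (0.93) and Nsg2 (0.93), and Il6st like Tox (0.92), Cd6 (0.91) and Ift80 (0.90). Il18r1 was most like Msn (0.79), Ppp3ca (0.79) and Il18rap (0.78), and Ifngr1 like Gimap7 (0.83), Cebpzos (0.82) and Sh3bgrl (0.77). Il4ra was most like Socs2 (0.89), a STAT5-induced feedback gene, Csnk2b (0.87) and Plp2 (0.87), Il21r like Cdk9 (0.86), Unc13d (0.85) and Slc38a10 (0.82), and Il27ra like Tia1 (0.91), Gbf1 (0.90) and Ankrd10 (0.90). Without the naive library the 3 most similar genes changed in at least 1 place for all 9 receptor genes, and in all 3 for Ifngr1. Ifngr1 was then most like Emb (0.92), Pnrc2 (0.90) and Inpp1 (0.90), Il2ra was no longer among the 3 most similar to Il12rb2, and Msn no longer among those of Il18r1, while Il18rap was (0.82).

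The cycling share differed widely between libraries, so each library was also split into cells with and without a Mki67 or Top2a UMI. Ifngr1 was lower in the cycling cells, with intervals apart, in 17 of 21 libraries, with a median difference of -0.29. Il4ra was lower in 16, also with a median of -0.29, Il6ra in 12, with -0.72, and Il12rb2 in 10, with -0.18. Il27ra was lower in 6, with -0.22, Il6st in 5, with -0.21, and Il21r in 2, with -0.05. Il18r1 was higher in the cycling cells in 3 libraries and lower in 2, and Il12rb1 higher in 1 and lower in 1. Cycling and other cells were compared for the receptor genes only, so the share of all genes lower in cycling cells was not tested. These levels are relative to all UMIs of each group of cells. UMIs per cell were not compared between the groups, so a lower CPM here need not mean fewer receptor UMIs per cell. Without cytokine on day 3, Il4ra stood at 86.9 CPM in cycling cells and 138 CPM in the others. The cycling share ran from 13.4% to 73.8% with IL-2 and from 5.21% to 58.2% with IL-15. In noncycling cells alone the calls of Il6ra, Il12rb1 and Il12rb2 in IL-15 against IL-2 held, as did those of Il12rb1 for the doses of IL-2 and IL-2v. The call of Il12rb1 in IL-2v against IL-15 was lost there. Il6ra was newly called lower for the dose of IL-2v, and Il6st on day 10 against day 3. The part of the cycling share in these calls was not tested, and the share of all genes called in noncycling cells is not given here.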

How the data were processed

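The data were raw counts of unique molecular identifiers per gene and cell, deposited by the authors as 1 table per library. Per the submitters' processing notes, Cell Ranger, Seurat 4.0.1 and 3.0.2 and the build mm10 were used, with no further detail. Groups were taken from the sample titles. For the higher dose of IL-2 the treatment labels name interleukin-3, and for that of IL-15 interleukin-16. Here the titles were followed. The extraction protocol describes sorted tumour-infiltrating cells and the growth protocol culture, and the libraries were treated as cultured cells. Day 7 was not analysed here.

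Cells under 1000 UMIs or 500 genes, or over 10% mitochondrial, were left out (2 cells). No doublet caller was run. Counts were summed per library with Python 3.11.15 and scaled to CPM. The pseudocount was 1 CPM. Shares were computed after thinning each cell to 2000 UMIs, which left out 57 to 393 cells per library. TMM factors came from edgeR 4.0.16. The 9 genes, the gene lists and the rule for the most similar genes were chosen with earlier results of these data known. Some genes of the lists are not reported here. The code was tested on simulated data. Alternatives were other scalings, pseudocounts, filters, cell sets and leaving out a day.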

Additional observations from a re-analysis of the deposited data

Results flagged for a closer look

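The dose effect of Il18r1 had opposite signs in IL-2v and IL-15 on all 3 days. From 5 to 50 IU/mL IL-2v its log2(CPM + 1) difference was -0.36 on day 3, -0.04 on day 5 and -1.79 on day 10, and with IL-15 it was 0.24, 1.12 and 1.78. The difference between the medians was -1.48. The 3 days are not replicates and the difference was not tested. On day 5 the IL-2v levels (66.4 and 64.5 CPM) had overlapping counting intervals, so the opposite sign there is within counting error. On day 10 the cycling share with IL-2v was 40.6% at the lower dose and 25.0% at the higher. With IL-15 it was 5.21% at the lower dose and 13.1% at the higher, and its part in the result was not tested.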

How the results depend on the processing

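No paired analysis was possible because each condition had 1 library and so no replicate numbers to match; the pairs used here match libraries by day and dose. No call of a receptor gene changed direction under any alternative run. The median over all genes tested did change sign with TMM scaling, for day 10 against day 3 (-0.17 to 0.09), IL-2v against no cytokine (0.17 to -0.03), the dose of IL-2v (0.10 to -0.03), day 5 against day 3 (-0.10 to 0.01), no cytokine on day 5 (-0.0016 to 0.12), IL-2 (0.05 to -0.04) and IL-15 (0.04 to -0.02) against no cytokine, IL-2v against IL-2 (0.06 to -0.0019), IL-15 against IL-2 (-0.01 to 0.01) and the dose of IL-15 (0.02 to -0.01). Without ribosomal protein and mitochondrial genes in the totals it changed sign for the doses of IL-2 (0.03 to -0.04) and IL-15 (0.02 to -0.0027), IL-2v against IL-15 (0.10 to -0.0057), IL-15 against IL-2 (-0.01 to 0.07), IL-2 against no cytokine (0.05 to -0.0016) and no cytokine on day 5 (-0.0016 to 0.0084). The counts of genes called moved most with the pseudocount, the filter on low genes and the days used. Counts of receptor genes under the alternatives below are given without the number of genes tested, so they cannot be set against a share of all genes.

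With a pseudocount of 10 CPM, 0 receptor genes were called higher with IL-2 against no cytokine (1 before), with IL-2v against IL-15 (1), with 50 against 5 IU/mL IL-15 (1) and on day 5 against day 3 (1), and 0 lower with IL-15 against IL-2 (2). All-gene calls became 779 for activation (1197 before), against no cytokine 69 (148) with IL-2, 209 (439) when IL-2v was given and 8 (24) under IL-15, 16 (77), 72 (125) and 66 (178) for IL-2v against IL-2, IL-15 against IL-2 and IL-2v against IL-15, 260 (411) for the IL-2 dose, 99 (178) for the IL-2v dose and 28 (58) for the IL-15 dose, and 76 (180) for day 5 against day 3. With no filter on low genes they became 2621, 1663 (757) for no cytokine on day 5 against day 3, 271, 730, 45, 240 for IL-15 against IL-2, 329 for IL-2v against IL-15, 851, 423 and 135 for the doses, 354 for day 5 and 1146 (529) for day 10 against day 3. Receptor genes called lower were then 2 without cytokine on day 5 (Il12rb1 besides Il12rb2) and 1 for the dose of IL-2 and 1 for that of IL-2v (Il6ra in each).

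With TMM scaling, 1 receptor gene was called higher without cytokine on day 5 (0 before), 1 lower with IL-15 against IL-2 and 0 higher for the dose of IL-15. With totals without ribosomal protein and mitochondrial genes these were 1 lower with IL-15 against IL-2, 1 lower for the dose of IL-2 (Il27ra) and 2 higher for the dose of IL-15 (Il18r1 and Il12rb2). TMM moved the median of all genes tested by 0.26 for day 10 against day 3 by 0.11 for day 5 against day 3, by 0.12 for no cytokine on day 5, by -0.19 for IL-2v against no cytokine and by -0.13 for the dose of IL-2v. In noncycling cells, all-gene calls were 477 without cytokine on day 5, 45 for IL-2v against IL-2 and 298 for day 10, and receptor genes were 0 higher with IL-2v against IL-15, 1 lower for the dose of IL-2v (Il6ra) and 2 lower on day 10 (Il6st and Il12rb2). With at most 5% mitochondrial UMIs, 1 receptor gene was higher without cytokine on day 5 (Il27ra), 1 lower for the dose of IL-2 (Il27ra) and 0 higher for that of IL-15. In cells with at most 2 times the median UMIs, 1 was lower with IL-15 against IL-2.

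Without day 3, receptor genes called were against no cytokine 2 higher and 1 lower (IL-2), 3 higher and 1 lower (IL-2v) and 3 higher (IL-15), 2 higher with IL-15 against IL-2, 2 higher and 1 lower with IL-2v against IL-15, 2 higher and 1 lower for the dose of IL-2, 1 lower for that of IL-2v and 2 higher for that of IL-15. All-gene calls were then 528, 1109 and 220 against no cytokine, 224, 266 and 445 between cytokines in the order above, and 664, 305 and 182 for the doses. The 2 pairs then left for each cytokine against no cytokine share the day 5 library without cytokine. The receptor gene counts without day 3 thus came with more calls over all genes against no cytokine, and the share of genes tested is not given. Without day 5, 0 receptor genes were higher with IL-2 against no cytokine, 1 was lower for the dose of IL-2 and 1 for that of IL-2v (Il18r1 in both), and all-gene calls with IL-2v against no cytokine were 166. Without day 10, 0 receptor genes were higher and 0 lower with IL-15 against IL-2, 2 were higher for the dose of IL-2 and 0 for that of IL-15, and all-gene calls were 44 for IL-2v against IL-2 and 29 for the dose of IL-15. Leaving out days 3, 5 or 10 gives no value for day 5 or day 10 against day 3.

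Of the 17 calls of single receptor genes, those of Il6ra, Il6st, Il27ra, Il12rb2 and Ifngr1 on activation, of Il12rb2 on day 5 without cytokine and on day 10, and of Il12rb1 for the doses of IL-2 and IL-2v held under every alternative run. The call of Il18r1 on activation was lost with TMM (-0.99), a pseudocount of 10 CPM (-0.87) and naive cells without Ccl5 (-0.66), the last chosen after the data were seen. Depth limits Il6ra with 50 IU/mL IL-2, where 3 UMIs are 0.11 CPM on day 10.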
